A study of Mus musculus with 18 samples.

Results

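The diet effect common to heart, kidney and liver was measured as 1 contrast over all 18 RNA sequencing libraries of the series. The libraries fell into 6 groups, 1 for each organ and diet, and the contrast set the mean of the 3 ketogenic groups against the mean of the 3 chow groups, so that each organ had equal weight. All mice were wild-type C57BL/6J, a widely used inbred strain. Starting at 4 weeks of age they received for 21 days either a ketogenic diet, in which fat was 90%, protein 9.7% and carbohydrate 0.3%, or standard chow, whose composition is not given in the sources used here. Each group held 3 libraries that the labels call biological replicates; whether organs came from the same mice is not stated. All 22609 listed genes entered, and 15495 had enough counts to be tested. The study's title speaks of senescence that depends on p53 in more than 1 organ, and the contrast asks which genes moved the same way in all 3 of them.

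When carbohydrate is scarce, liver oxidises fatty acids and exports part of the carbon as ketone bodies, which heart and kidney can burn. Much of this enzyme program is under the fatty acid sensor PPAR-alpha. Organs of young mice still grow, and growth draws on cell division and on the laying down of collagen and elastin. Nearly every cell also runs a circadian clock, in which BMAL1 (encoded by Arntl) and its partners CLOCK or NPAS2 switch on repressors that later shut them off. The p53 protein can halt division, largely through its target Cdkn1a, and lasting arrest of this kind is called senescence.

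Libraries held between 16135276 and 23835383 counts. The organs matched their labels: troponin T (Tnnt2) stood at 3475 to 3856 CPM (counts scaled to library size) in the 6 hearts and at no more than 0.400 CPM in the other 12 libraries, the phosphate transporter Slc34a1 at 3104 to 6046 CPM in kidney and at most 3.02 CPM elsewhere, and albumin (Alb) at 69383 to 135016 CPM in liver and at most 56.3 CPM elsewhere. Ketogenic replicates 1 and 2 differed little beyond counting error in heart (2.34%) and liver (2.51%), against 5.66% to 12.9% for all other pairs of replicates. Each of these pairs counted as 1 sample in a mean ± SD, but the main fit, with its SE and p-values, took all 18 libraries as separate. Chow heart replicate 3 held atrial and fat transcripts, with 47522 counts of the atrial light chain gene Myl7. Among kidneys, ketogenic replicates 1 and 3 held the most fat transcripts, with 500 and 1102 counts of Plin1 against 19 to 231 in the other 4. Counts below that rest on these libraries were also run without them. CPM are not divided by gene length, so levels are compared within a gene only.

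On average over the organs, 2319 genes were higher on the ketogenic diet, 15% of those tested, and 2307 were lower, 14.9% (edgeR quasi-likelihood test, Benjamini-Hochberg adjusted p under 0.05). These shares of all genes are the background for each count of list members below. An average can come from 1 organ. Of the 4626 genes that passed in either direction, 29.9% of those tested, 398 passed in each organ on its own, 1104 in 2 organs, 2764 in 1 organ (1881 of them in liver) and 360 in none. The sign was the same in all 3 organs for 2938 genes and mixed for 1688. A difference in the diet effect between organs passed its own test for 5878 genes, 37.9% of those tested. With the near-identical ketogenic pairs of heart and liver summed, the numbers were smaller. Then 2100 genes were higher and 1785 lower on average, and 4275 differed between organs.

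A gene was taken as moving in 1 direction when it passed on average and, in each organ, every ketogenic library lay on the same side of every chow library. There were 292 such genes higher, 1.88% of those tested, and 465 lower, 3%. The falls were the deeper ones. The median log2 change was 0.39 for the genes that rose and -1.07 for those that fell, and the change was at least 2-fold in every organ for 6 of the former (Gm129, Dbp, Per2, Bhlhe41, Gm4956 and Igj) and 169 of the latter. By organ, the median was 0.40 in heart, 0.32 in kidney and 0.41 in liver for the rises, and -1.07, -0.86 and -1.20 for the falls. The change was largest in liver for 266 of the 465 falls and 120 of the 292 rises, in heart for 146 and 120, and in kidney for 53 and 52. Passing in each organ on its own was met by 261 of the falls and 85 of the rises. The organs differed in size of effect for 124 of the falls (26.7%) and 100 of the rises (34.2%). Gene lists of pathways and cell types held 121 of the 465 falls and 56 of the 292 rises, so most of the genes of 1 direction belonged to none of them.

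Scaling bears on the balance of rises and falls. When libraries were scaled only to their totals, the median over all tested genes shifted to -0.07 on average and -0.17 in heart, and rises made up 28.5% of the calls, against 50.1% with TMM scaling. The genes of 1 direction were then 145 higher and 722 lower, and 575 of the 757 were the same genes.

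Ranked by the smallest of the 3 organ changes, among genes at an average log2 CPM of at least 2, the rises were led by clock genes and MHC class II genes and the falls by genes of cell division. The 14 rises reported here, of 15, were Gm129 (now named Ciart), Dbp, Per2, Bhlhe41, H2-Eb1, H2-Aa, Tef, Cml2, Per3, Mir5107, H2-Ab1, Cd74, Cpeb1 and Rasgrf2. The 15 falls were Cdk1, Prc1, Ccna2, Top2a, Hmmr, Eln, Ccnb1, Aspm, Mki67, Anln, Tpx2, Hist1h1b, Ccnb2, Kif11 and Hist1h3c. Of these, 12 falls encode proteins of the dividing cell, 2 encode histones and 1, Eln, encodes elastin. The last rise listed, Rasgrf2, had a smallest change of 0.77 and the next, Slco1a1, of 0.75, while the last fall, Hist1h3c, had -2.16 and the next, Kif20a, -2.11.

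**Figure D1:**
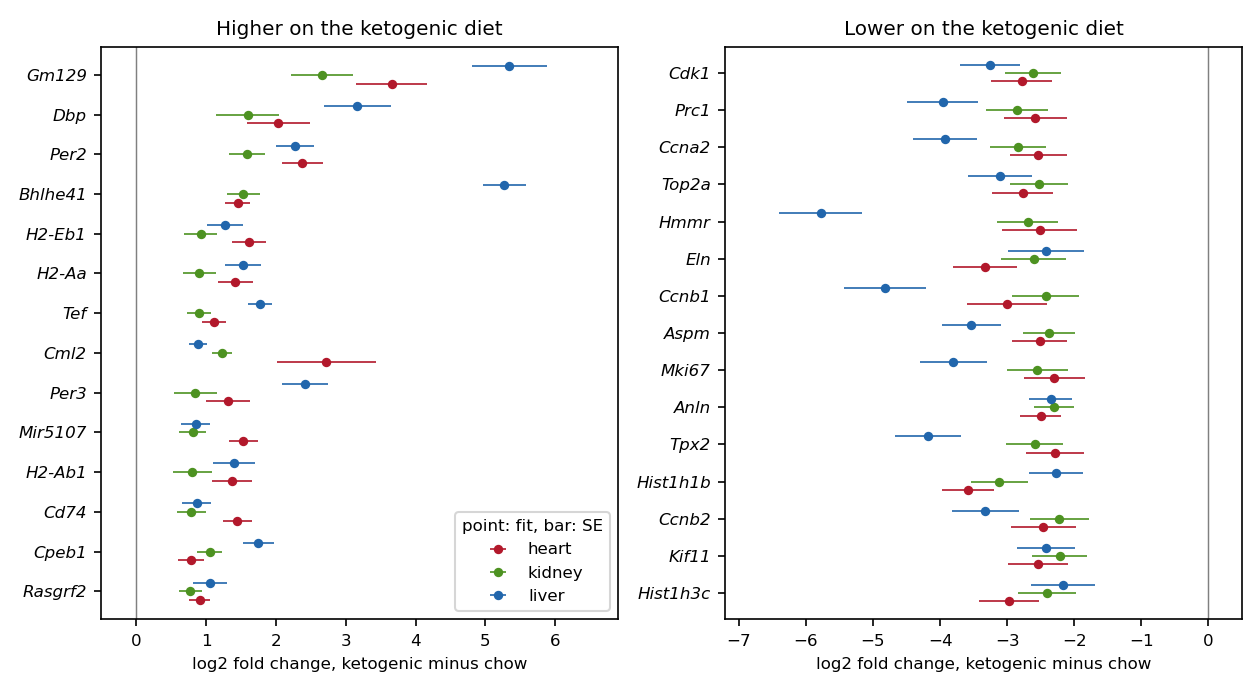
Log2 fold change, ketogenic minus chow, of 14 of the 15 genes with the largest rise and the 15 with the largest fall common to the organs, with 1 point per organ (red, heart; green, kidney; blue, liver) and a bar of 1 SE. All points lie on 1 side of 0 by the way the genes were chosen. The liver points of Gm129, Bhlhe41, Hmmr and Ccnb1 lie farthest out, at 5.34, 5.27, -5.78 and -4.82. In liver, Gm129 and Bhlhe41 were below 1 CPM in every chow library, and Hmmr and Ccnb1 in every ketogenic library.

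Clock genes moved in opposite directions according to their place in the loop. Of 19 tested clock genes, 13 rose and 4 fell on average, and 9 rises and 3 falls were of 1 direction in all organs, with a median log2 change of 0.59 against -0.0008 for all genes. The falls of 1 direction were the activators Arntl and Npas2 and the repressor Nfil3; the rises were Gm129, Dbp, Per2, Bhlhe41, Tef, Per3, Nr1d2, Hlf and Bhlhe40. The hour at which the organs were taken is not given in the sources used here.

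BMAL1 and its partners bind the E-box CACGTG, so the bases ahead of the start of 3 of the rising genes are shown for reference, 250 bases each, 5′ to 3′, with every CACGTG in capitals (RefSeq, GRCm38.p6; chr3:95882229-95882478 for Gm129 and chr6:145865421-145865670 for Bhlhe41, both on the minus strand, and chr15:81802423-81802672 for Tef, on the plus strand).
Gm129: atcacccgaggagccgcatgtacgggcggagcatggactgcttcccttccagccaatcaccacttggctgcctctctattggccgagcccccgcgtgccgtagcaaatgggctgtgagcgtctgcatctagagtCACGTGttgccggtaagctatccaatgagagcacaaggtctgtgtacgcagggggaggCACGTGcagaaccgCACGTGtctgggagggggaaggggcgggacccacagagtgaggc
Bhlhe41: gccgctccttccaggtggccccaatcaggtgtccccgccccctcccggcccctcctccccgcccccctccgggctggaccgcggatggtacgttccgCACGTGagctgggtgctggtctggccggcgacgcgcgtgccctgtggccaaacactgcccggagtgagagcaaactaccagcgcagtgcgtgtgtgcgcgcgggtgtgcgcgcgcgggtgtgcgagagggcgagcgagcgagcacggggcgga
Tef: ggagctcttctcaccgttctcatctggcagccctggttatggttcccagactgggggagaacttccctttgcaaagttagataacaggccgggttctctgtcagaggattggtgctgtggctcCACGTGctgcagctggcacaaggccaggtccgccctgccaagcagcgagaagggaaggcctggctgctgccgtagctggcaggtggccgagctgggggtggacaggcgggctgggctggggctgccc
CACGTG reads the same on both strands. It lies 3 times in the Gm129 stretch, at -116, -58 and -44 from the start, and once each in those of Bhlhe41, at -153, and Tef, at -127. In windows of 250 bases before to 50 after the start, 7.24% of 27025 genes held it, and so did 5 of the 16 clock genes in the table: Per1, Cry1, Tef, Bhlhe41 and Gm129. Dbp, Per3, Nr1d2 and Hlf, which also rose in 1 direction, were among the 16 and did not hold it. A match describes the letters in this window only.

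Arntl encodes BMAL1, the activator of the loop, and lies at chr7:120350979-120457640 (first to last exon, mouse build mm9). It stood at 29.04, 22.5 and 20.99 CPM in the chow and 5.75, 5.04 and 4.78 CPM in the ketogenic hearts. The levels were 13.3, 11.7 and 10.6 CPM in the chow and 3.23, 4.004 and 3.998 CPM in the ketogenic kidneys, and 50.5, 35.5 and 30.4 CPM in the chow and 2.72, 2.300 and 2.48 CPM in the ketogenic livers. Every chow library lay above every ketogenic library of its organ. The log2 change was -2.61 ± 0.11 (SE) on average (adjusted p = 1.76e-10, edgeR), with -2.21 in heart, -1.66 in kidney and -3.95 in liver, and it differed between organs (adjusted p = 2.32e-05). Npas2, which can take the place of CLOCK beside BMAL1, fell by 2.42 ± 0.15 on the log2 scale (adjusted p = 9.88e-09, edgeR), and most in liver, where the libraries held 11.99, 9.81 and 6.74 CPM on chow and 0.679, 0.431 and 0.219 CPM on the ketogenic diet. Nfil3, a repressor of the same D-box sites that DBP activates, fell by 1.40 ± 0.18.

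Gm129 encodes CHRONO, a repressor of the BMAL1 complex (chr3:95682428-95686151, mm9), and led the rises. Its chow libraries stayed near the lower end of what was counted. It stood at 0.374, 0.878 and 0.477 CPM in the chow and 8.19, 6.89 and 6.63 CPM in the ketogenic hearts. It stood at 0.415, 1.62 and 1.19 CPM in the chow and 7.62, 4.69 and 8.16 CPM in the ketogenic kidneys, and 0.126, 0.348 and 0.811 CPM in the chow and 12.5, 12.2 and 28.1 CPM in the ketogenic livers. The lowest ketogenic library, a kidney at 4.69 CPM, lay above the highest chow library, also a kidney, at 1.62 CPM. The average log2 change was 3.89 ± 0.29, or 14.8-fold (adjusted p = 1.24e-07, edgeR), and the organs differed (adjusted p = 0.0263).

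Dbp, Tef and Hlf encode the PAR bZIP factors, through which the clock drives many genes of metabolism. Dbp (chr7:52960617-52965573, mm9) stood at 22.5, 35.4 and 53.4 CPM in the chow and 159, 155 and 144 CPM in the ketogenic hearts. The corresponding values were 28.5, 38.1 and 44.5 CPM in the chow and 137, 90.7 and 109 CPM in the ketogenic kidneys, and 5.71, 23.98 and 38.8 CPM in the chow and 193, 189 and 234 CPM in the ketogenic livers. The chow livers spread widely, from 5.71 to 38.8 CPM, without meeting the ketogenic ones. Dbp rose by a log2 change of 2.27 ± 0.27 (adjusted p = 2.86e-05, edgeR), Tef by 1.26 ± 0.10 (adjusted p = 1.55e-07) and Hlf by 0.73 ± 0.07 (adjusted p = 4.29e-07). A difference between organs passed for Tef (adjusted p = 0.0192) and did not pass for Dbp (0.142) or Hlf (0.347).

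Per2, a core repressor (chr1:93312559-93355905, mm9), stood at 2.09, 2.47 and 6.08 CPM in the chow and 20.99, 18.9 and 17.4 CPM in the ketogenic hearts. Its levels were 8.95, 14.5 and 14.01 CPM in the chow and 41.3, 33.6 and 37.2 CPM in the ketogenic kidneys, and 9.73, 12.8 and 11.7 CPM in the chow and 50.4, 49.4 and 66.4 CPM in the ketogenic livers. The ketogenic libraries were the higher in each organ, and the average log2 change was 2.08 ± 0.16 (adjusted p = 1.87e-07, edgeR). Per3 rose by 1.53 ± 0.18, although its change in kidney, 0.85, did not pass there (adjusted p = 0.0897). Bhlhe41 (DEC2), a repressor that competes for E-boxes, rose by 2.75 ± 0.15 with a far larger change in liver, 5.27, than in heart, 1.45, or kidney, 1.53 (adjusted p of the difference = 4.31e-06). Its chow livers held only 0.251, 0.290 and 0.374 CPM, so the size of the liver change rests on few counts. Its relative Bhlhe40 rose by 0.54 ± 0.13 (adjusted p = 0.00556), and Nr1d2, a repressor of Arntl, by 0.92 ± 0.07 (adjusted p = 8.48e-08).

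**Figure D2:**
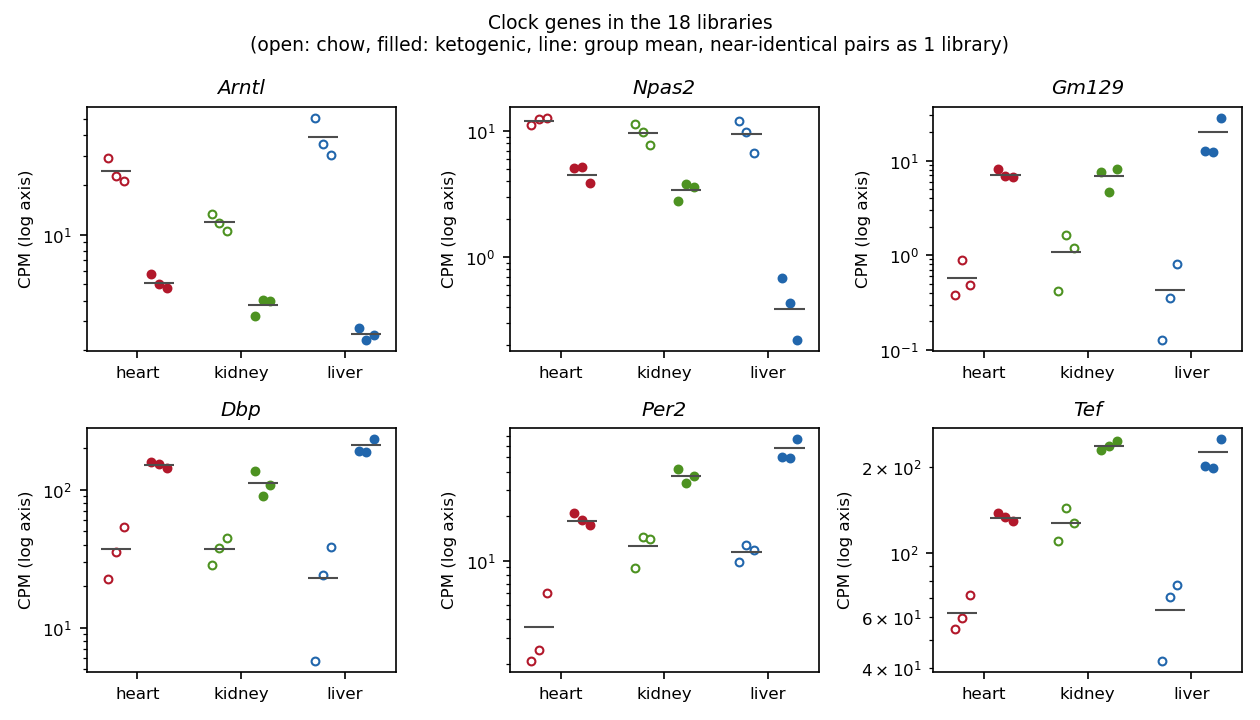
CPM on a log axis of 6 clock genes in each library, with chow as open and ketogenic as filled points and the group mean as a line (the near-identical ketogenic pairs of heart and liver entered the mean as 1 library). Arntl and Npas2 are lower and Gm129, Dbp, Per2 and Tef higher in every ketogenic library than in every chow library of the organ.

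Genes of mitosis and cytokinesis fell almost without exception. Of 47 tested, 46 fell and 1 rose on average (14.9% of all genes fell), 43 fell in 1 direction in all organs, and the median log2 change was -2.67, with -2.52 in heart, -2.29 in kidney and -3.32 in liver. The 1 that rose was Pttg1 (securin), by 0.15 on the log2 scale; it did not pass in fits without chow heart replicate 3 and ketogenic kidney replicate 1 or scaled to total count alone. Besides Pttg1, the genes without 1 direction were Cenpa, Cenpf and Ndc80, and the organs disagreed on Cenpf, a centromere protein, with a log2 change of 1.18 in heart, -2.91 in kidney and -4.62 in liver.

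Promoters of genes used late in the cell cycle often pair a CCAAT box with the element TTTGAA (the CHR), so 3 of the falling genes are shown with both in capitals, on either strand (ATTGG and TTCAAA on the other), 250 bases before the start, 5′ to 3′ (RefSeq, GRCm38.p6; chr10:69352913-69353162 for Cdk1, chr7:135716380-135716629 for Mki67 and chr11:99024190-99024439 for Top2a, all on the minus strand).
Cdk1: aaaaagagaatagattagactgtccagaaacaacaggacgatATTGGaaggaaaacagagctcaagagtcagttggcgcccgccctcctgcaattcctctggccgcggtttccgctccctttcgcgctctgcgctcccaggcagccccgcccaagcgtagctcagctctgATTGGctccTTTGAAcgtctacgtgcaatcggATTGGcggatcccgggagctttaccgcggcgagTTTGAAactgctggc
Mki67: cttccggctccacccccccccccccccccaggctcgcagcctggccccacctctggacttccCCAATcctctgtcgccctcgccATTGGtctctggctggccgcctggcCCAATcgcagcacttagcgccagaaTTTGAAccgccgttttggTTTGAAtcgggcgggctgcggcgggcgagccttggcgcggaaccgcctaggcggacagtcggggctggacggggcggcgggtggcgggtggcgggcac
Top2a: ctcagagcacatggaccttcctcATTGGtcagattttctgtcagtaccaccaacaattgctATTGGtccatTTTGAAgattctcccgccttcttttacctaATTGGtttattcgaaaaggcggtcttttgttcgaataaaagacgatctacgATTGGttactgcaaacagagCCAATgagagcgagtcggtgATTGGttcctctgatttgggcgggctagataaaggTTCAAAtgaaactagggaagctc
Cdk1 held CCAAT at -208, -80 and -48 and TTTGAA at -71 and -15 from the start. Over windows of 250 bases before to 50 after the start and both strands, CCAAT was in 31, TTTGAA in 29 and both in 26 of the 39 mitosis genes in the table. Of all 27025 genes, 37.9% held CCAAT, 18.1% TTTGAA and 7.12% both. CCAAT was not particular to the mitosis genes, since 12 of the 16 clock genes held it, while 0 of the 16 held TTTGAA. The variant TTCGAA was in 4 of the 39 and in 1.57% of all genes. Neither CCAAT nor TTTGAA contains the other, and a match describes letters only.

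Cdk1 encodes the kinase that drives entry into mitosis (chr10:68799383-68815660, mm9). It stood at 8.77, 6.53 and 3.18 CPM in the chow and 0.777, 1.04 and 0.829 CPM in the ketogenic hearts. The values were 8.995, 7.92 and 6.55 CPM in the chow and 0.493, 1.71 and 1.599 CPM in the ketogenic kidneys, and 10.2, 15.8 and 11.4 CPM in the chow and 1.22, 2.08 and 0.584 CPM in the ketogenic livers. The lowest chow library, heart replicate 3, lay above the highest ketogenic library of any organ. Cdk1 fell by 2.89 ± 0.25 on the log2 scale on average, or 7.395-fold (adjusted p = 4.39e-07, edgeR), and a difference between organs did not pass (adjusted p = 0.678).

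Top2a encodes the topoisomerase that untangles sister chromosomes (chr11:98854261-98885503, mm9). Its libraries held 34.3, 33.8 and 13.6 CPM in the chow and 4.04, 4.92 and 2.87 CPM in the ketogenic hearts. They held 31.9, 30.2 and 19.8 CPM in the chow and 1.84, 5.32 and 6.96 CPM in the ketogenic kidneys, and 24.7, 40.2 and 27.7 CPM in the chow and 3.53, 4.82 and 2.34 CPM in the ketogenic livers. Ketogenic kidney replicate 1 was the lowest and chow heart replicate 3 the lowest of the chow libraries, and no groups overlapped. The average log2 change was -2.80 ± 0.26 (adjusted p = 2.7e-06, edgeR). Mki67, whose protein marks cycling cells, changed by -2.30 in heart, -2.55 in kidney and -3.80 in liver on the log2 scale.

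The cyclins of mitosis changed alike in direction. Ccna2 fell by 3.10 ± 0.26, Ccnb1 by 3.42 ± 0.33 and Ccnb2 by 2.67 ± 0.27 on the log2 scale. Prc1 and Anln, which build the midzone and the contractile ring of a dividing cell, fell by 3.13 ± 0.28 and 2.38 ± 0.18. Tpx2, Kif11, Hmmr and Aspm serve the spindle, with changes of -3.02, -2.39, -3.66 and -2.81. Hmmr differed between organs, with -2.52 in heart, -2.70 in kidney and -5.78 in liver (adjusted p = 0.014), while Anln and Kif11 showed nearly the same change in each (adjusted p = 0.928 and 0.908 for a difference). The ketogenic livers held only 0.339, 0.288 and 0.073 CPM of Hmmr, so the size of its liver change rests on few counts. Foxm1, a transcription factor of late cell-cycle genes, fell by 2.62 ± 0.20, and the checkpoint gene Bub1b by 2.16 ± 0.15.

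DNA replication genes fell less deeply. Of 38 tested, 32 fell, none rose, and 6 did not pass; 16 fell in 1 direction, and the median was -0.87, with -1.32 in liver against -0.73 in heart and -0.70 in kidney. Cdc6, which loads the helicase at origins, fell by 2.39 ± 0.25, and the helicase subunits Mcm5 and Mcm6 by 1.87 ± 0.17 and 1.46 ± 0.12. For Mcm6 the organs differed, with -0.97 in heart, -0.70 in kidney and -2.70 in liver (adjusted p = 0.000143). Rrm2, a subunit of ribonucleotide reductase, fell by 1.77 ± 0.14. Of 64 tested genes of the histone clusters, 55 fell and none rose, with a median of -1.64, but 60 of them had fractional counts from reads shared with near-identical copies, so single members, Hist1h1b (-2.99) and Hist1h3c (-2.51) included, are uncertain.

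Collagen genes fell as a body: all 17 tested fell, 15 of them in 1 direction, with a median log2 change of -0.99; the largest falls were those of Col1a1 (-1.96) and Col3a1 (-1.92). Among matrix glycoproteins and proteoglycans, 21 of 36 fell, 12 in 1 direction, and none rose (median -0.41). Of 20 enzymes that modify collagen, 13 fell, 8 in 1 direction, and 2 rose (median -0.37).

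Eln, the gene of elastin, had the largest common fall outside cell division and histones (chr5:135178466-135223124, mm9). It stood at 223, 243 and 642 CPM in the chow and 39.1, 34.8 and 36.7 CPM in the ketogenic hearts. It was at 106, 53.1 and 29.7 CPM in the chow and 7.26, 9.81 and 13.8 CPM in the ketogenic kidneys, and 25.05, 23.3 and 18.96 CPM in the chow and 4.55, 3.23 and 4.75 CPM in the ketogenic livers. Levels in liver were low in both diets, yet the libraries did not overlap. The average log2 change was -2.78 ± 0.29 (adjusted p = 1.02e-05, edgeR). Col1a2, a chain of collagen I (chr6:4455697-4491543, mm9), stood at 488, 507 and 823 CPM in the chow and 241, 238 and 191 CPM in the ketogenic hearts. Its levels were 395, 266 and 256 CPM in the chow and 101, 79.5 and 113 CPM in the ketogenic kidneys, and 79.3, 74.4 and 81.8 CPM in the chow and 24.8, 23.1 and 25.04 CPM in the ketogenic livers. It fell 3.02-fold on average (log2 change -1.59 ± 0.12, adjusted p = 8.6e-08, edgeR), with -1.44 in heart, -1.65 in kidney and -1.69 in liver, and no difference between organs passed (adjusted p = 0.728).

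The collagen V chains Col5a1 and Col5a2, which set fibril width, fell by 1.41 ± 0.08 and 1.28 ± 0.08, and Col15a1, of basement membranes, by 1.41 ± 0.09. Sparc, a collagen-binding glycoprotein, changed by -1.43 in heart, -1.50 in kidney and -1.28 in liver. Nid2 (nidogen) fell by 1.26 ± 0.08, most in liver (-1.84, adjusted p of the difference = 0.00305). Enzymes and helpers of collagen assembly fell too: the chaperone Serpinh1 fell by 0.87 ± 0.06, the propeptidase Bmp1 by 0.65 ± 0.06, its enhancer Pcolce by 0.70 ± 0.05 and the crosslinking oxidase Loxl2 by 1.22 ± 0.10. In these bulk samples fewer cells of a type and less RNA per cell cannot be told apart. Fibroblast markers had 4 of 11 lower, 1 of them (Meox1, -1.87) in 1 direction. In liver Meox1 stood near 0, at 0.879, 0.406 and 0.125 CPM on chow and 0.0679, 0.0719 and 0 CPM on the ketogenic diet. Its liver change of -3.14 is thus a fitted value from few counts. The median of the fibroblast markers was -0.56 in heart, -0.26 in kidney and 0.21 in liver. They summed to 2273 to 3619 CPM in chow and 1995 to 2384 in ketogenic hearts, 385 to 480.5 and 302 to 429.8 in kidneys, and 76.02 to 87.5 and 80.6 to 101 in livers. Smooth muscle markers had 3 of 10 lower, Tagln (-1.17) in 1 direction. The part of either cell type in the matrix changes was not tested.

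**Figure D3:**
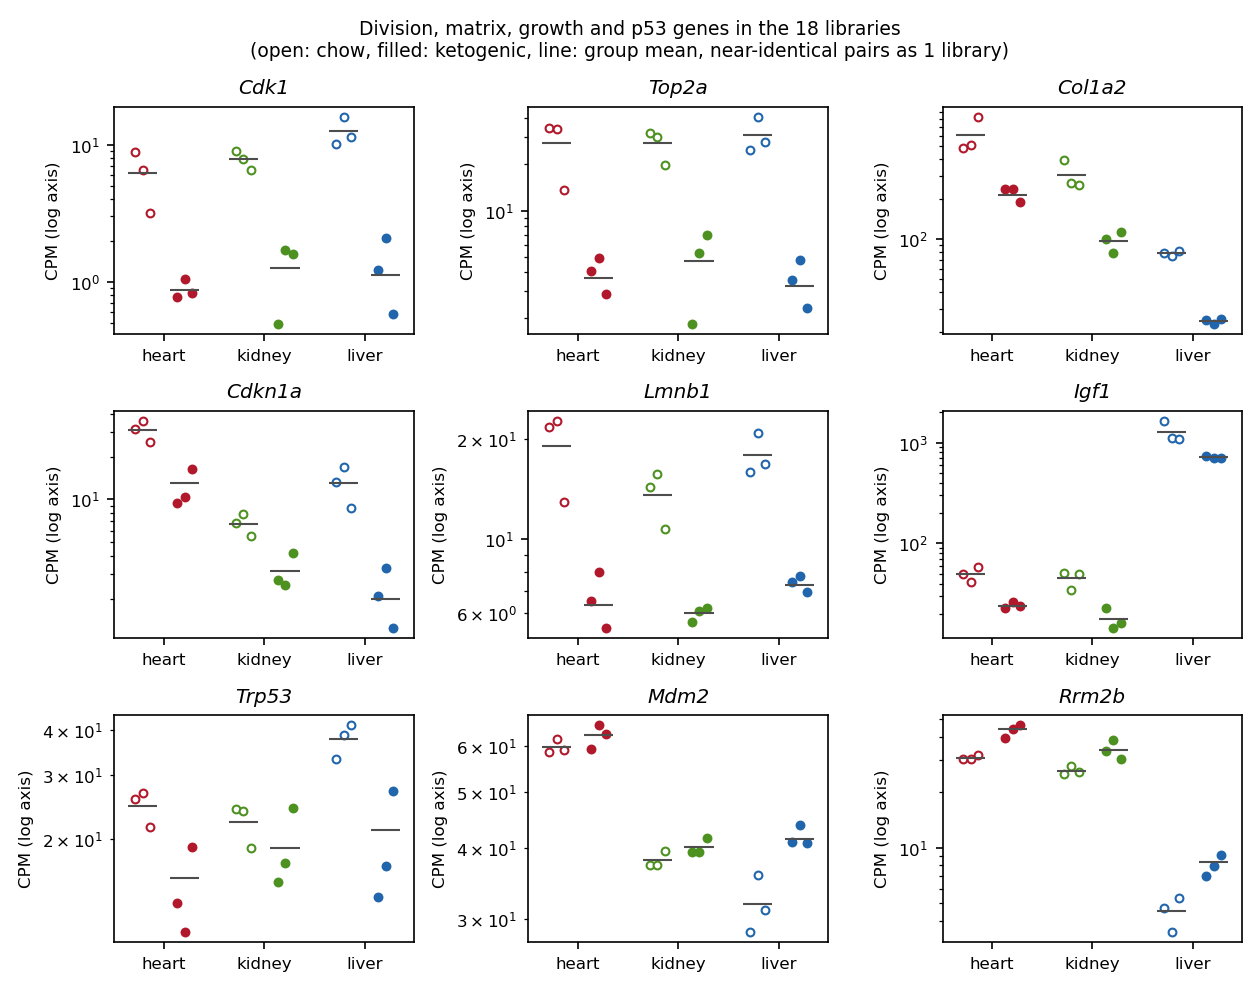
CPM on a log axis of 9 genes of division, matrix, growth and the p53 pathway in each library, with chow as open and ketogenic as filled points and the group mean as a line (near-identical pairs as 1 library). Cdk1, Top2a, Col1a2, Cdkn1a, Lmnb1 and Igf1 are lower and Rrm2b higher in every ketogenic library of each organ, while the points of Trp53 overlap in kidney.

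The title names p53 and senescence, and genes listed for them fell more often than they rose where they moved in 1 direction. Of 35 tested p53 targets, 16 fell (14.9% of all genes did), 2 rose (15%) and 17 did not pass. Of 1 direction were 6 falls and 1 rise, and the median was -0.21. Of 28 inhibitors of cyclin-dependent kinases and senescence genes, 9 fell, 6 rose and 13 did not pass, with 5 falls and no rise of 1 direction (median -0.12). The rises included Mmp12 (1.22), Cxcl1 (1.13), Ccl5 (0.90) and Il1b (0.89), which encode secreted factors, and Hmgb1 (0.17), and the organ values of each overlapped or disagreed in at least 1 organ. Neither list holds only genes that p53 raises, and some targets, such as Gtse1 (-2.10), are themselves genes of the dividing cell. These RNA counts therefore do not measure the activity of p53 or the extent of senescence.

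Cdkn1a encodes p21, the kinase inhibitor that p53 induces (chr17:29227931-29237667, mm9). It stood at 31.2, 35.5 and 25.3 CPM in the chow and 9.43, 10.4 and 16.3 CPM in the ketogenic hearts. It was at 6.84, 7.83 and 5.52 CPM in the chow and 2.69, 2.49 and 4.198 CPM in the ketogenic kidneys, and 13.4, 16.8 and 8.73 CPM in the chow and 2.104, 3.31 and 1.24 CPM in the ketogenic livers. The ketogenic libraries were lower in every organ without overlap. Cdkn1a fell by 1.66 ± 0.18 on the log2 scale, or 3.17-fold, on average (adjusted p = 4.03e-06, edgeR), and most in liver (-2.55, adjusted p of the difference between organs = 0.0418).

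Trp53 itself fell by 0.66 ± 0.14 on average (adjusted p = 0.00177, edgeR), but not in 1 direction: its kidney libraries held 24.2, 23.8 and 18.9 CPM on chow and 15.2, 17.2 and 24.4 CPM on the ketogenic diet and overlapped. Mdm2, the ubiquitin ligase that removes p53 and is its target, rose by 0.18 ± 0.04 (adjusted p = 0.00554), a change that passed on its own only in liver (0.39, adjusted p = 0.000658) and that differed between organs (adjusted p = 0.036). Rrm2b, the p53-induced subunit of ribonucleotide reductase, was the 1 target that rose in 1 direction, by 0.57 ± 0.07 (adjusted p = 1.55e-05), whereas its counterpart Rrm2 of dividing cells fell. The cell death genes Bax and Bbc3 fell by 0.49 ± 0.08 and 0.99 ± 0.13.

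Lmnb1, whose lamin B1 protein is lost from senescent cells, fell by 1.32 ± 0.11 (adjusted p = 2.35e-07, edgeR), by near equal amounts in the organs (-1.51 in heart, -1.18 in kidney and -1.27 in liver, adjusted p of the difference = 0.592). H2afx, which encodes the histone that marks broken DNA and is also made in dividing cells, fell by 1.16 ± 0.11. Among the inhibitors, Cdkn2c fell by 0.62 ± 0.09 and Cdkn1b was at 0.04 ± 0.05 (adjusted p = 0.585), a value that turned to -0.029 with total-count scaling. Cdkn2a, which encodes p16 and p19ARF, had too few counts to be tested: 8, 8 and 5 in the chow hearts and 0 to 2 in each of the other 15 libraries.

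Igf1, the growth factor released by liver under growth hormone and also made locally (chr10:87321801-87399792, mm9), fell in all organs. It stood at 49.3, 41.9 and 57.96 CPM in the chow and 22.9, 26.2 and 23.8 CPM in the ketogenic hearts. It was at 50.9, 34.5 and 49.8 CPM in the chow and 22.96, 14.5 and 16.4 CPM in the ketogenic kidneys, and 1623, 1121 and 1077 CPM in the chow and 737, 711 and 700.4 CPM in the ketogenic livers. No ketogenic library reached the lowest chow library of its organ. The average log2 change was -1.07 ± 0.11 (adjusted p = 1.75e-06, edgeR). Irs1, an adaptor of the insulin and IGF1 receptors, fell by 0.57 ± 0.07. Igf2 changed by -0.42 ± 0.35 and did not pass (adjusted p = 0.416). Of 18 imprinted growth genes of early life, 9 fell and 1 rose (median -0.47), but of these only Plagl1 (-0.91) fell in 1 direction; Mest changed by -2.20 in heart, -0.65 in kidney and -1.24 in liver, and Grb10 by -0.15 in heart, -0.07 in kidney and -1.17 in liver.

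Genes of fat oxidation rose on average. All 24 tested genes of mitochondrial beta-oxidation rose on average (15% of all genes did), 15 of them in 1 direction, and the median log2 change was 0.69, with 1.03 in heart, 0.39 in kidney and 0.73 in liver. Within organs 22 of the 24 rose in heart (10.8% of all genes did), 11 in kidney (5.49%) and 20 in liver (19%), and the organs differed for 16. Acadm, Cpt1b and Hsd17b10 stood at -0.04, -0.09 and -0.10 in kidney and Echs1 at -0.13 in heart. Of 41 PPAR-alpha targets, 27 rose, 14 in 1 direction, and 1 fell (median 0.72). Of 29 peroxisome genes 20 rose, 5 in 1 direction, and 1 fell (median 0.27). Ppara itself rose by 0.57 ± 0.10 (adjusted p = 0.000245, edgeR).

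Acat1, the mitochondrial thiolase that joins and splits acetoacetyl-CoA (chr9:53388627-53418455, mm9), serves both beta-oxidation and the making and use of ketone bodies. It stood at 446, 417 and 378 CPM in the chow and 711, 717 and 743 CPM in the ketogenic hearts. It was at 506, 463 and 476 CPM in the chow and 525, 679 and 627 CPM in the ketogenic kidneys, and 522, 461 and 423 CPM in the chow and 1046, 1054 and 876 CPM in the ketogenic livers. Ketogenic kidney replicate 1, at 525 CPM, lay close to the highest chow kidney, and no groups overlapped. The mean was 413 ± 34.2 CPM (SD, n = 3) in chow and 729 ± 20.6 CPM (SD, n = 2) in ketogenic hearts. The average log2 change was 0.74 ± 0.07 (adjusted p = 2.86e-07, edgeR). It was 0.81 in heart, 0.34 in kidney and 1.08 in liver, the kidney value alone did not pass (adjusted p = 0.063), and the organs differed (adjusted p = 0.00483).

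Cpt1a, which brings long-chain fatty acids into the mitochondrion (chr19:3323301-3385733, mm9), stood at 65.7, 81.2 and 85.2 CPM in the chow and 155, 158 and 138 CPM in the ketogenic hearts. Its values were 338, 378 and 369 CPM in the chow and 456, 574 and 635 CPM in the ketogenic kidneys, and 721, 657 and 710.2 CPM in the chow and 1205, 1207 and 1353 CPM in the ketogenic livers. The diets did not overlap in any organ, and the rise was close to the same size in each: 0.96 in heart, 0.62 in kidney and 0.85 in liver (average 0.81 ± 0.07, adjusted p = 2.41e-07, edgeR). A difference between organs did not pass (adjusted p = 0.259).

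Enzymes that feed unsaturated fatty acids into beta-oxidation rose in every organ without overlap of the diets. Ech1 rose by 1.11 ± 0.08 (adjusted p = 3.86e-08, edgeR), Decr1 by 1.00 ± 0.08, Eci1 by 0.79 ± 0.07 and Eci2 by 0.79 ± 0.05. For Ech1 and Decr1 the heart change was the largest, at 1.66 and 1.64 (adjusted p of the difference between organs = 0.00226 and 0.00118). Slc22a5, the carnitine importer, rose by 0.91 ± 0.06, most in liver (1.55). Pex11a, which divides peroxisomes, rose by 1.38 ± 0.07. Crat, which makes acetylcarnitine, rose by 0.81 ± 0.09. Acot2, a mitochondrial thioesterase, rose by 1.25 ± 0.10, a value made uncertain by reads it shares with other Acot genes. Angptl4, an inhibitor of lipoprotein lipase, changed by 1.64 in heart, 1.06 in kidney and 0.46 in liver (adjusted p of the difference = 0.0023), and Lipe, the hormone-sensitive lipase, by 0.88 ± 0.18 on average. Lipe is also an adipocyte marker, and its ketogenic kidneys held 36.3, 22.0 and 58.7 CPM, highest in the replicates 1 and 3 with the most fat transcripts. Without ketogenic kidney replicate 3 its change was 0.74 (adjusted p = 0.00297, edgeR), and without all kidneys 0.77 (adjusted p = 0.00374); the part of fat tissue in its rise was not tested.

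Ketone body genes, taken as a list, did not share the rise of the beta-oxidation genes. Of 11 genes of ketone body metabolism 3 rose, 2 of them in 1 direction, Acat1 among them, and 3 fell: Bdh2 (-0.89) and the monocarboxylate carriers Slc16a1 (-0.38) and Slc16a7 (-0.36) (median -0.18). The falls numbered 1 with the near-identical pairs summed and 5 without chow heart replicate 3 and ketogenic kidney replicate 1, where the median turned to 0.10. Oxct1, which activates acetoacetate in consuming tissues, was at -0.21 ± 0.09 (adjusted p = 0.1) and Bdh1, which interconverts the ketone bodies, at -0.24 ± 0.12 (adjusted p = 0.157). Without chow heart replicate 3 both passed as lower, at -0.26 (adjusted p = 0.0157) and -0.35 (adjusted p = 0.000798, edgeR).

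Synthesis of fatty acids moved the other way in part: of 24 genes 8 fell and 2 rose (median -0.16), and the desaturase Scd2 alone fell in 1 direction, by 1.27 ± 0.09 (adjusted p = 3.35e-08, edgeR). Of 20 genes of branched-chain amino acid oxidation 11 rose, 4 in 1 direction, and none fell. Aldh6a1 rose by 0.52 ± 0.06, Auh by 0.46 ± 0.05 and Mut by 0.35 ± 0.04. For the tricarboxylic acid cycle 9 of 24 genes were higher and none lower, 4 of them in 1 direction, with a median of only 0.13; with total-count scaling 5 rose and 1 fell. For oxidative phosphorylation the count of 14 rises and 2 falls among 39 genes stood beside 24 rises in liver (19% of all genes rose there), 2 in heart (10.8%) and 0 in kidney (5.49%), where 4 fell; with total-count scaling 6 rose and 4 fell on average.

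Pdk4, which encodes a kinase that inhibits pyruvate dehydrogenase and is a common marker of fasting, passed on average without moving in 1 direction. It stood at 313, 318 and 351 CPM in the chow and 2648, 2699 and 2329 CPM in the ketogenic hearts. It was at 20.1, 28.4 and 22.3 CPM in the chow and 17.8, 32.3 and 33.4 CPM in the ketogenic kidneys, and 20.7, 17.2 and 18.02 CPM in the chow and 8.62, 9.201 and 7.01 CPM in the ketogenic livers. The hearts rose, the kidneys overlapped and the livers fell. The average log2 change of 0.68 ± 0.11 passed (adjusted p = 0.000161, edgeR) although the organ values were 2.97 in heart, 0.24 in kidney and -1.17 in liver (adjusted p of the difference = 1.68e-07), and without the heart libraries it turned to -0.48.

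**Figure D4:**
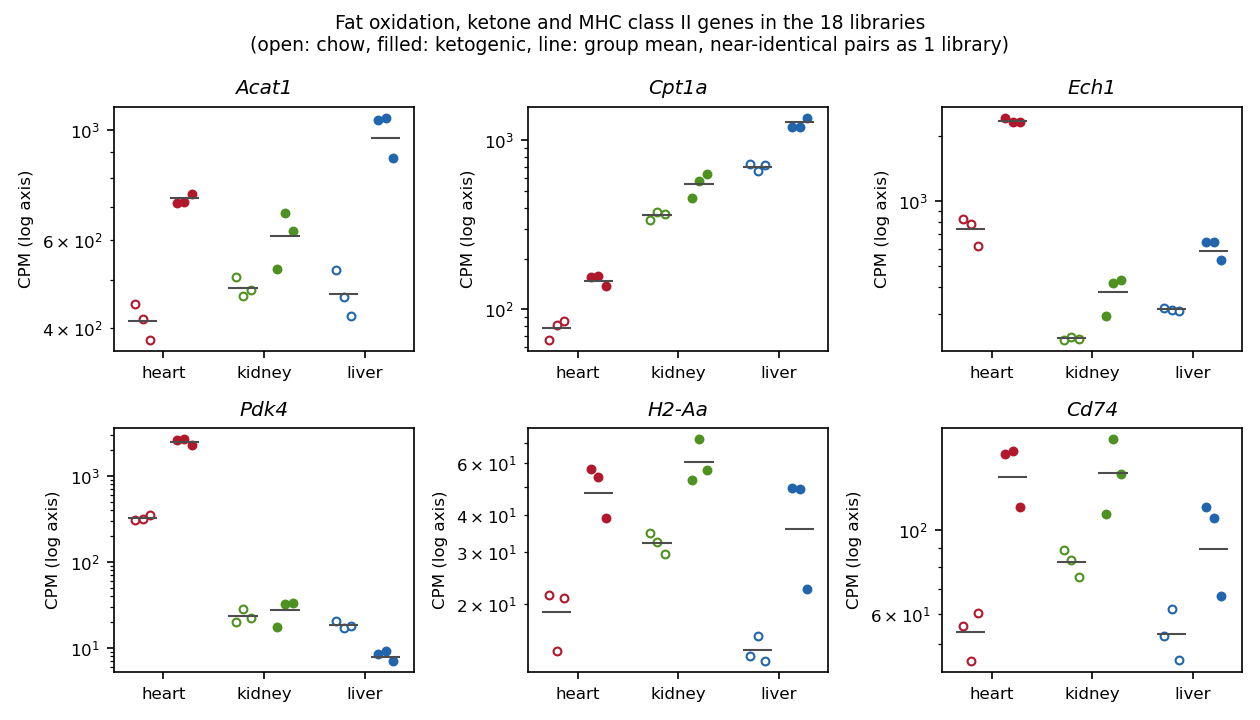
CPM on a log axis of 4 genes of fuel use and 2 MHC class II genes in each library, with chow as open and ketogenic as filled points and the group mean as a line (near-identical pairs as 1 library). Acat1, Cpt1a, Ech1, H2-Aa and Cd74 are higher in every ketogenic library of each organ; Pdk4 is higher in heart, overlaps in kidney and is lower in liver.

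MHC class II genes rose in common; their list and those of dendritic and B cells were written after the values were seen. MHC class II molecules present peptides to helper T cells and are made mainly by dendritic cells, B cells and activated macrophages. Of 9 tested genes 8 rose, 4 in 1 direction (H2-Eb1, H2-Aa, H2-Ab1 and Cd74), with a median log2 change of 0.91, and a difference between organs passed for none of the 9.

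H2-Aa, the alpha chain of I-A (chr17:34419696-34424716, mm9), stood at 21.5, 13.9 and 21.1 CPM in the chow and 57.4, 54.1 and 39.3 CPM in the ketogenic hearts. It was at 34.9, 32.5 and 29.7 CPM in the chow and 52.6, 72.4 and 56.9 CPM in the ketogenic kidneys, and 13.4, 15.7 and 12.8 CPM in the chow and 49.6, 49.1 and 22.6 CPM in the ketogenic livers. The diets did not overlap in any organ, and ketogenic liver replicate 3 lay well below the other ketogenic livers. The log2 change of H2-Aa was 1.28 ± 0.15 (adjusted p = 1.01e-05, edgeR), of H2-Ab1 1.19 ± 0.17, of H2-Eb1 1.27 ± 0.14 and of Cd74, the invariant chain, 1.03 ± 0.12. Ciita, the master activator of these genes, rose by 0.91 ± 0.18 on average (adjusted p = 0.000949, edgeR), but not in 1 direction. Its liver change of 0.57 did not pass (adjusted p = 0.174). In heart, ketogenic replicate 3 (1.40 CPM) lay below chow replicate 3 (1.55 CPM). The peptide loader H2-DMa rose by 0.57 ± 0.14 on average (adjusted p = 0.00417), also not in 1 direction, and passed on its own in liver only.

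Markers of the cells that carry these molecules were counted in the same fit, in which 15% of all genes rose and 14.9% fell. Of 9 dendritic cell markers 2 rose, Flt3 (1.23 ± 0.36, adjusted p = 0.0147; 0.0561 without ketogenic heart replicate 2) among them, and their summed level was 17.9 to 19.9 CPM in chow and 16.3 to 23.3 in ketogenic hearts, 19.2 to 21.8 and 21.2 to 26.8 in kidneys, and 12.4 to 15.04 and 16.2 to 18.1 in livers, where the ranges did not meet. Their median was -0.01 in heart, 0.63 in kidney and 0.28 in liver, and 4 of the 9 rose without chow heart replicate 3 and ketogenic kidney replicate 1. Of 5 B cell and plasma cell markers 1 rose, and it did so in 1 direction. The summed levels of the 5 lay between 1.61 and 8.63 CPM in all 18 libraries. Of 14 macrophage markers 1 rose (Mpeg1, 0.50) and 2 fell, Csf1r (-0.29) among them; their median was -0.70 in heart, where the MHC class II median was 1.10. Of 9 lymphocyte markers 1 rose (Nkg7, 1.01). The part of cell numbers in the rise of MHC class II was not tested. Among interferon response genes 6 of 32 were higher and 5 lower, close to those shares of all genes. The 2 of 1 direction, Ifitm3 (-0.43) and Oasl2 (-0.47), fell.

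Among the leading rises not yet described, Cpeb1, which controls translation through poly(A) tails, rose by 1.19 ± 0.11 (adjusted p = 5.65e-07, edgeR), with 0.78 in heart, 1.05 in kidney and 1.75 in liver. Rasgrf2, an exchange factor for RAS, rose by 0.91 ± 0.11 and showed no difference between organs that passed (adjusted p = 0.699). Cml2 rose by 1.61 ± 0.24, but it belongs to a family of near-identical N-acetyltransferase genes with fractional counts and is uncertain. In heart it stood near 0, at 0, 0.0549 and 0.0398 CPM on chow and 0.207, 0.405 and 0.128 CPM on the ketogenic diet, so its heart change of 2.72 is a fitted value from few counts, and its average level passed the minimum through liver (771 to 1729 CPM). Mir5107, a hairpin entry, rose by 1.06 ± 0.12, but it lies within Cd74 on the same strand and its level followed that of Cd74 (1.03 ± 0.12), so the reads of both cannot be told apart and it is no separate rise.

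Protein-folding genes split. Of 33 heat shock and endoplasmic reticulum chaperone genes 11 rose, 4 in 1 direction, and 10 fell, 2 in 1 direction. The common rises were Herpud1, of endoplasmic reticulum degradation, by 0.69 ± 0.07 and with nearly the same change in each organ (0.67 in heart, 0.69 in kidney and 0.71 in liver), and the cytosolic chaperone genes Hsph1 (0.50 ± 0.08), Hspa8 (0.37 ± 0.07) and Dnajb1 (0.35 ± 0.07); Hspa8 had fractional counts in all 18 libraries. Manf, a secreted factor of endoplasmic reticulum stress, fell by 0.48 ± 0.08. Of 24 genes of the integrated stress response 7 fell and 2 rose, with Aldh18a1, of proline synthesis, lower by 0.84 ± 0.12 in 1 direction. Of 21 autophagy genes 10 rose, 2 in 1 direction (Park2, 0.68, and Map1lc3b, 0.32), and 1 fell. Of 20 immediate early genes 2 rose and 4 fell, none in 1 direction, and Egr1 changed by -0.58 in heart, 0.25 in kidney and -3.34 in liver.

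Among markers of other cell types, the erythroid ones fell mostly in heart. Of 13 erythroid markers 9 fell and 1 rose, with a median of -1.73 in heart, -0.31 in kidney and -0.36 in liver, and Slc4a1 (band 3, -1.89) and Epb4.2 (-1.68) fell in 1 direction. Their summed level was 4664 to 6590.3 CPM in chow and 1295 to 2760.5 CPM in ketogenic hearts, and 618 to 972 and 401 to 865 in kidneys and 853 to 1180.4 and 862 to 997 in livers, where the ranges overlapped. The number of falls dropped to 5 when the near-identical pairs were summed, and to 5 without chow heart replicate 3 and ketogenic kidney replicate 1. Of 16 endothelial markers 3 fell (14.9% of all genes did), among them Cdh5 (-0.32) and Pecam1 (-0.18), and 7 did without those libraries. Of 12 adipocyte markers 1 rose, Lipe, and of 6 atrial markers none passed, although their heart medians were -3.94 and -6.06, and the adipocyte median was 1.34 in kidney; the summed atrial level was 114 to 12473 CPM in chow hearts, highest in replicate 3, and 109 to 168 CPM in ketogenic hearts. By organ, Slc4a1 changed by -2.61 in heart, -0.38 in kidney and -2.68 in liver. Its kidney change did not pass (adjusted p = 0.405, edgeR), and chow levels were 48.7 to 59.8 CPM in kidney and 8.24 to 19.5 CPM in heart. Epb4.2 passed on its own in heart only. In liver it stood near 0, at 0.188, 0.290 and 0.125 CPM on chow and 0.0679, 0.0719 and 0.073 CPM on the ketogenic diet. The liver change of Epb4.2, -1.44, is thus a fitted value from few counts. The part of blood-forming cells in the erythroid falls, or in the fall of cell division genes in any organ, was not tested.

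**Figure D5:**
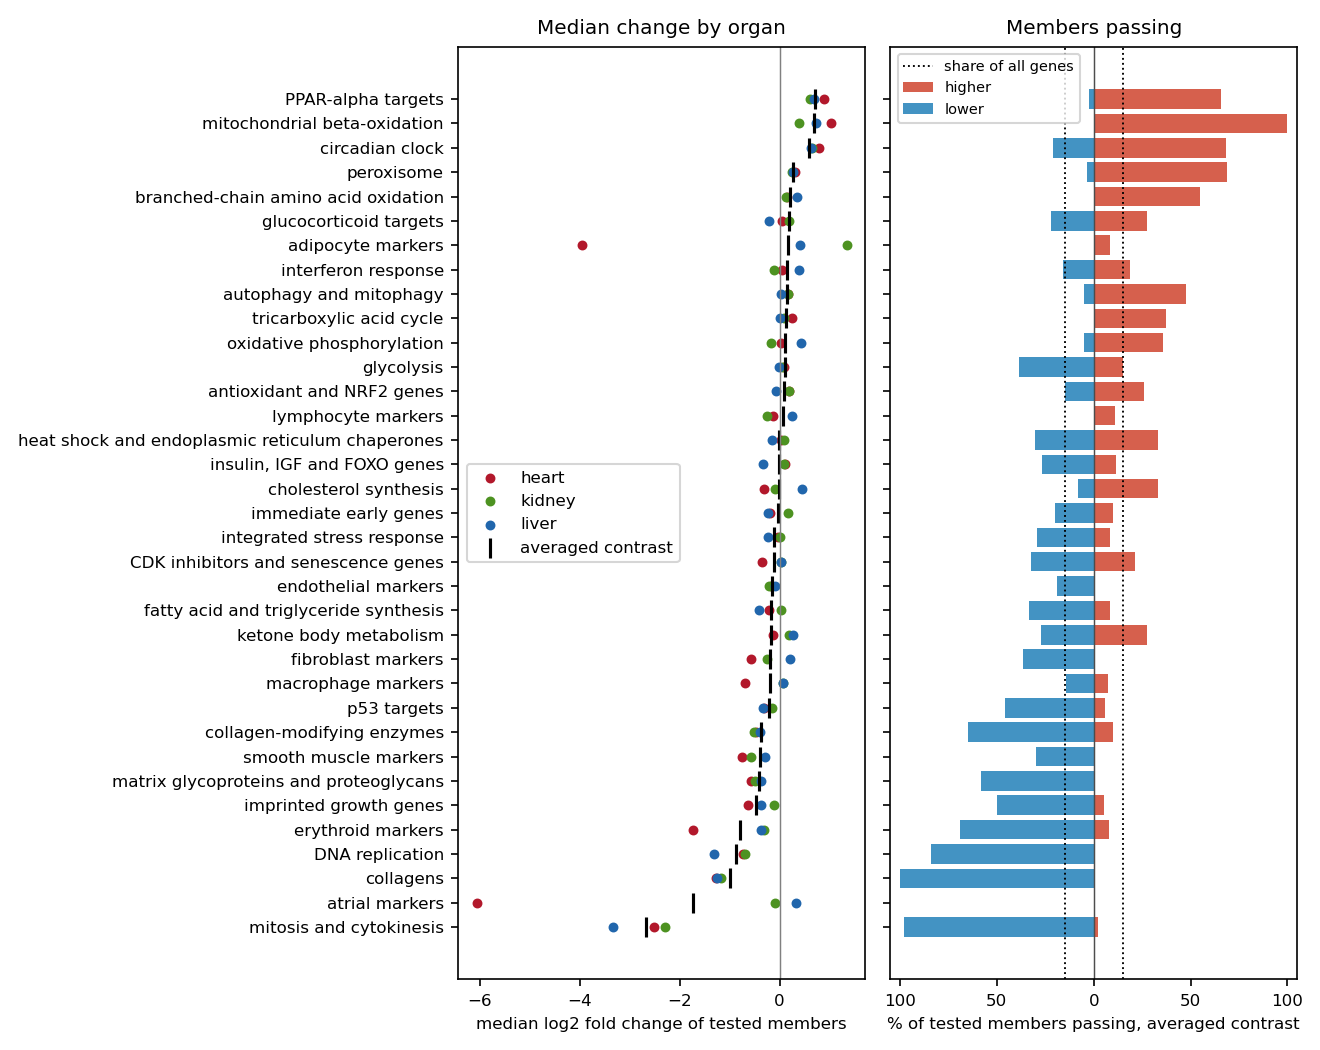
Left, the median log2 fold change of the tested members of each gene list in heart, kidney and liver (points) and in the averaged contrast (black bar); right, the percentage of tested members that passed on average as higher (red) or lower (blue), with the 15% and 14.9% of all genes as dotted lines. Mitosis, collagens and DNA replication lie low and beta-oxidation, PPAR-alpha targets and the clock lie high in every organ, while the heart medians of the adipocyte and atrial markers lie farthest to the left, at -3.94 and -6.06.

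The counts of the leading lists held in fits chosen for the libraries in doubt. With the near-identical pairs summed, without chow heart replicate 3 and ketogenic kidney replicate 1, and with both together, 46 mitosis genes and 17 collagens fell and 24 beta-oxidation genes rose each time, and DNA replication genes fell in 30, 33 and 31. Clock genes rose in 13 or 14 and fell in 4 or 5, and MHC class II genes rose in 7 or 8. Of the 757 genes of 1 direction, 751 remained so in the fit with both changes. Fewer libraries had to lie apart in that fit, so few genes could be lost and the number says little. With total-count scaling of all libraries, 575 remained.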

How the data were processed

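Messenger RNA of heart, kidney and liver went into stranded libraries, per the labels; they put the RNA integrity number above 4. The submitters' processing notes name bcl2fastq, HISAT2 2.1.0, SAMtools and featureCounts 1.5.0. Per the file headers, featureCounts summed reads over exons of each gene on mouse build mm9, with the same options in all 18 files, and divided reads of several places or genes into fractions. The deposited values are thus estimated counts that need not be whole, and they were rounded before testing. Genes with fractional counts share reads with similar genes.

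All 18 libraries, totalling 16135276 to 23835383 counts each, entered 1 edgeR 4.0.16 model (R 4.3.3) with 6 group means, filterByExpr, TMM scaling and robust quasi-likelihood dispersion. The averaged contrast, the 3 organ contrasts and a test with 2 degrees of freedom that the organs differ came from this fit, with Benjamini-Hochberg adjustment over 15495 genes and a threshold of 0.05. Unless another tool is named, every adjusted p is edgeR's. CPM use effective library sizes, and log2 changes are ketogenic minus chow with an SE from the fit. Groups that do not overlap have every library of 1 diet above every library of the other. The fitting step was tested on simulated counts.

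Named are the 15 rises and 15 falls of 1 direction with the largest smallest-organ change (average log2 CPM of at least 2, predicted genes left out), up to 4 members per list with the smallest adjusted p, and 13 further genes; some of these are not reported here. The other genes named, and the lists of MHC class II, dendritic and B cell genes, were chosen after their values were seen. The members and all lists were chosen with earlier results of these data known, so list counts are descriptions. Replicate numbers were not taken to pair the samples, since not every pair correlated: libraries of the same diet and number in 2 organs correlated at -0.23 to 0.18 in their deviations, with 5 of 18 pairs over 0.1, against 3 of 36 pairs of other numbers. The 3 chow heart and kidney pairs of the same number were all over 0.1 (0.15 to 0.18). These correlations do not settle whether organs came from the same mice, and the main fit took all libraries as independent. A limma-voom fit took diet and number as a random block, with a correlation of 0.0012. It gave 2207 genes higher and 2083 lower on average. Alternatives were RLE, upper quartile and total-count scaling, no filter or a CPM of 1 in at least 3 libraries, DESeq2 1.42.0, limma-voom (limma 3.58.1), an adjusted p under 0.1, a test against 1.5-fold, a replicate block, only genes with whole counts, and leaving out each library, each organ, or chow heart replicate 3 with ketogenic kidney replicate 1; near-identical pairs were also summed. Promoter windows of 300 bases, 1 per gene, are RefSeq's on GRCm38.p6; they carry no mm9 coordinates.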

Additional observations from a re-analysis of the deposited data

Results flagged for a closer look

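The diet effect differed between heart, kidney and liver for 5878 of 15495 genes by edgeR's quasi-likelihood test over the organs, and 39 of the named genes were among them. Their adjusted p-values of that difference follow, and most of these genes still moved in 1 direction.

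In 28 of the 39 the change was largest in liver. Among clock genes these were Bhlhe41 (4.31e-06), Arntl (2.32e-05), Npas2 (3.96e-05), Nr1d2 (0.00102), Tef (0.0192), Gm129 (0.0263) and Per3 (0.0304). Among genes of division and replication they were Mcm6 (0.000143), Hmmr (0.014), Racgap1 (0.043), Foxm1 (0.0476) and Rrm2 (0.0477). The p53 targets and kinase inhibitors were Bbc3 (0.00733), Mdm2 (0.036), Cdkn2c (0.041) and Cdkn1a (0.0418). Fuel and autophagy genes were Slc22a5 (0.000109), Map1lc3b (0.0016), Acat1 (0.00483), Auh (0.00827), Eci2 (0.0284) and Mut (0.041). The remaining liver genes were Grb10 (0.000514), Egr1 (0.00106), Slc4a1 (0.00174), Nid2 (0.00305), Mpeg1 (0.0333) and Cpeb1 (0.0353).

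The change was largest in heart for 10 genes, mostly of fat use: Pdk4 (1.68e-07), Acot2 (9.27e-05), Pex11a (0.000126), Decr1 (0.00118), Ech1 (0.00226), Angptl4 (0.0023), Scd2 (0.00502) and Crat (0.0278). The other heart genes were Igfbp7 (7.2e-06), a secreted binding protein that fell by 1.16 there on the log2 scale and changed by -0.25 in kidney and -0.10 in liver, and Csf1r (0.0292). Bdh1 (0.0444) had its largest change in kidney, at -0.69, with the opposite sign in liver.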

How the results depend on the processing

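Without 1 library at a time, 2060 to 2393 genes were higher and 2031 to 2346 lower on average, 310 to 365 were higher and 482 to 560 lower in 1 direction, and the organs differed for 4874 to 6333. Scaling to total count gave 1331 higher on average, and 145 higher and 722 lower in 1 direction. A test against 1.5-fold left 80 and 337, with 49 and 256 in 1 direction. Genes with whole counts only, 5302 of them before filtering, gave 340 and 690, with 38 and 194 in 1 direction and 902 that differed between organs. Because fewer libraries must lie apart, the counts of 1 direction grew where libraries were left out: to 660 and 866 without heart, 662 and 915 without kidney, 985 and 890 without liver (where 707 genes differed between the 2 organs left), and 441 higher without chow heart replicate 3 and ketogenic kidney replicate 1. With the near-identical pairs summed as well, a setting added after the data were seen, they were 554 and 726. Pdk4 turned to -0.48 without the heart libraries and Cdkn1b to -0.029 with total-count scaling; the cause was not tested. With the replicate block 2269 genes were higher and 2256 lower on average, 291 and 464 in 1 direction, and 5686 differed between organs; it changed no call of a named gene. RLE and upper quartile scaling, no filter, the stricter filter, DESeq2, limma-voom and an adjusted p under 0.1 kept all these counts within 1.5-fold. Of 117 named genes, 117 kept direction and call under DESeq2 and RLE scaling, 115 under limma-voom and 113 with total-count scaling. Genes with few counts, such as Cdkn2a, were below what this depth can test.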

Other observations

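Glycolytic genes had no common direction: 10 of 26 fell and 4 rose on average (14.9% and 15% of all genes did), yet the median was 0.10, with 14 members above 0 and 12 below. With the near-identical pairs summed 6 fell. The falls were small, with Slc2a1 (GLUT1) at -0.42, Eno1 at -0.33 and Gapdh at -0.20 on the log2 scale, and none was of 1 direction in all organs, while 1 rise was. Of the tricarboxylic acid cycle genes 4 rose in 1 direction by small amounts, Suclg2 by 0.42, Pdha1 by 0.27, Idh3g by 0.26 and Idh3b by 0.17.

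Sterol synthesis had no common direction. On average 8 of 24 genes rose and 2 fell, but the median was 0.44 in liver and -0.31 in heart, and no member was of 1 direction; Sqle, an early enzyme of the pathway, changed by -1.13 in heart, 0.02 in kidney and 0.66 in liver. Glucocorticoid targets were also split, with 5 of 18 higher and 4 lower: Fkbp5 changed by 0.77 in heart, 1.36 in kidney and -0.60 in liver (adjusted p of the difference = 2.77e-05, edgeR). Ddit4, shared between that list and the p53 targets, fell by 0.72 in 1 direction, as did Cdkn1a. Of 27 antioxidant genes 7 rose and 4 fell, and Gsta3, whose reads are shared with similar Gsta genes, alone rose in 1 direction (0.35). The maternally expressed RNA H19 changed by -0.45 in heart, -1.71 in kidney and -6.35 in liver.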
